A study of Mus musculus with 12 samples.

Results

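The genes Arc, Homer1, Plk2, Nrn1, Baiap2 and Sorcs3 code for proteins that act at the postsynaptic side of excitatory synapses or on the growth of dendrites, and several are known to be induced by neuronal activity. Their transcripts were followed in the mouse hippocampus after status epilepticus, a long-lasting seizure. The members were chosen by gene symbol, as every probe set annotated with 1 of these 6 symbols. This gave 14 probe sets of the 45037 on the array that were not array controls, and 6 of 17097 genes: 5 for Homer1, 4 for Baiap2, 2 for Sorcs3 and 1 each for Arc, Plk2 and Nrn1. A probe set is a group of short oligonucleotides that read 1 stretch of a transcript, so probe sets of a gene can report different transcripts. All 14 passed the filter on dim probe sets and were tested.

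Status epilepticus was set off with kainic acid (KA), which activates ionotropic glutamate receptors, at 0.3 µg in 0.2 µl into the amygdala. Those mice received lorazepam, a benzodiazepine, at 6 mg/kg into the abdomen after 40 min. Vehicle controls had 0.2 µl put into the amygdala, and lorazepam is not mentioned for them. Tissue was the hippocampus of the injected side. The groups were KA 8 h, control 8 h, KA 14 d and control 14 d, with 3 arrays each. The labels used here give no strain, age or sex. A separate time entry reads 8, 9 and 10 h for control 8 h replicates 1 to 3, and 11, 12 and 13 h for KA 8 h replicates 1 to 3. It thus rises by 1 from each array to the next, while the titles of all these arrays give 8 hours. Groups follow the titles. By the separate entry, later sampling and KA at 8 h cannot be told apart. The labels do not tie arrays to animals, so the p-values speak to the spread among these 12 samples alone, part of which may be technical.

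Several of these genes belong to a programme that synaptic activity switches on within neurons. Arc is transcribed within minutes of strong synaptic input, its mRNA moves into dendrites, and its protein promotes the uptake of AMPA receptors. Long Homer1 proteins cross-link metabotropic glutamate receptors with Shank scaffolds and inositol trisphosphate receptors, whereas the short, activity-induced form (Homer1a) lacks the coiled coil and breaks those links. Plk2 is a kinase that marks the spine protein SPAR for degradation, and Nrn1 (neuritin) is a lipid-anchored protein that promotes the growth of dendritic arbors. Baiap2 (IRSp53) bends membranes and joins Rac and Cdc42 to actin in spines, and Sorcs3 is a sorting receptor of the postsynaptic density that binds Pick1.

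Levels are log2 intensities, and the median of an array lay between 4.90 and 4.95. Within groups, arrays correlated at 0.984 to 0.996 over the 32790 probe sets tested. The small number of arrays limits the precision. Neuronal transcripts were present: Snap25, a synaptic vesicle fusion protein, lay between 11.69 and 12.06 on the 12 arrays. Prox1, a transcription factor of dentate granule cells, lay between 8.03 and 9.03, and Neurod6, an excitatory neuron marker, between 5.49 and 6.89. The astrocyte marker Slc1a2 was as bright as Snap25 (11.61 to 12.06), so these levels do not show that the samples were mainly neuronal. Over all genes 7.48% rose and 8.81% fell at 8 h, and 1.78% rose and 0.469% fell at 14 d. Of 10 measured pan-neuronal markers, 2 fell at 8 h (Rbfox3 and Tubb3) and 1 fell at 14 d (Syt1). Their summed linear intensity ranged from 14219 to 15787 in KA 8 h and from 14833 to 15876 in control 8 h, and from 13229 to 15943 in KA 14 d and from 15466 to 16573 in control 14 d. In whole tissue, fewer cells of a type and less RNA per cell cannot be told apart. Of 6 measured microglia markers, 2 fell at 8 h, where the sum ranged from 497 to 569 in KA 8 h and from 592 to 672 in control 8 h. At 14 d, 5 of the 6 rose, with sums of 1715 to 1886 in KA 14 d and 798 to 858 in control 14 d. Of 6 excitatory neuron markers, 1 fell at 8 h (Neurod6, 1.74-fold lower), where the sum ranged from 4078 to 4655 in KA 8 h and from 4326 to 4748 in control 8 h, and none was called at 14 d. Of 7 oligodendrocyte markers, 2 fell at 8 h (Mog and Cnp), with sums of 4053 to 4773 in KA 8 h and 4294 to 4961 in control 8 h. Of 6 endothelial markers, 2 rose (Pecam1 and Cdh5) and 1 fell (Slco1a4) at 8 h, with sums of 588 to 634 in KA 8 h and 442 to 472 in control 8 h. Of 8 astrocyte markers, 1 rose at 8 h (Gfap), with sums of 6666 to 7503 in KA 8 h and 5892 to 6169 in control 8 h. At 14 d, 4 of the 8 rose, with sums of 8974 to 10816 in KA 14 d and 6435 to 6924 in control 14 d. Of 5 choroid plexus markers none passed at either time, and their sum ranged from 885 to 5113 in KA 8 h and from 4018 to 4943 in control 8 h. Xist, the RNA of X inactivation, ranged over 7.39 to 8.71 in KA 8 h, against 4.19 to 4.67 in the remaining 9 arrays. The Y-linked Eif2s3y ranged over 5.57 to 6.83 in KA 8 h, against 7.46 to 8.09 in the remaining arrays. Kdm5d, also Y-linked, ranged over 5.07 to 6.10, against 6.43 to 6.95. The dimmer Y-linked Uty overlapped (4.14 to 4.61 against 4.35 to 4.82). In KA 8 h, both Xist and Eif2s3y lay above the array median. The part of cell makeup in the results below was not tested. At 8 h, a difference in sex, if there is one, and KA cannot be told apart.

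At 8 h, 8 of the 14 probe sets were higher after KA and 0 were lower, and each of the 6 genes had at least 1 probe set that rose. For Baiap2 this was 1425656_PM_a_at alone, whose 8 h controls lay below its 14 d controls. Of the 8, Homer1 1425671_PM_at and Sorcs3 1425111_PM_at exceeded the filter on KA arrays alone, so their count is no support. Over all 32790 probe sets tested, 7.48% were called higher and 7.29% lower. The median log2 change of the 14 was 0.76 as fitted and 0.54 with those 2 at the bound their background allows, against -0.01 over all probe sets. A probe set was called at a limma adjusted p under 0.05. No call at 8 h was lost with any 1 array left out. The members were chosen with earlier results of these data known, so the share called and the medians are descriptions. Both medians of the members also hold the 2 probe sets that exceeded the filter on KA arrays alone.

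Arc (probe set 1418687_PM_at) had log2 intensities of 9.26, 9.31 and 9.59 in KA 8 h, against 5.76, 5.50 and 6.04 in control 8 h. Every KA 8 h array stood far above every control 8 h array. The log2 change was 3.61 ± 0.24 (SE, n = 3 per group), or 12.3-fold (limma adjusted p = 1.53e-07). This was the largest of the 14 changes. The 8 h controls themselves lay well below the 14 d controls, which is described further on.

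**Figure D1:**
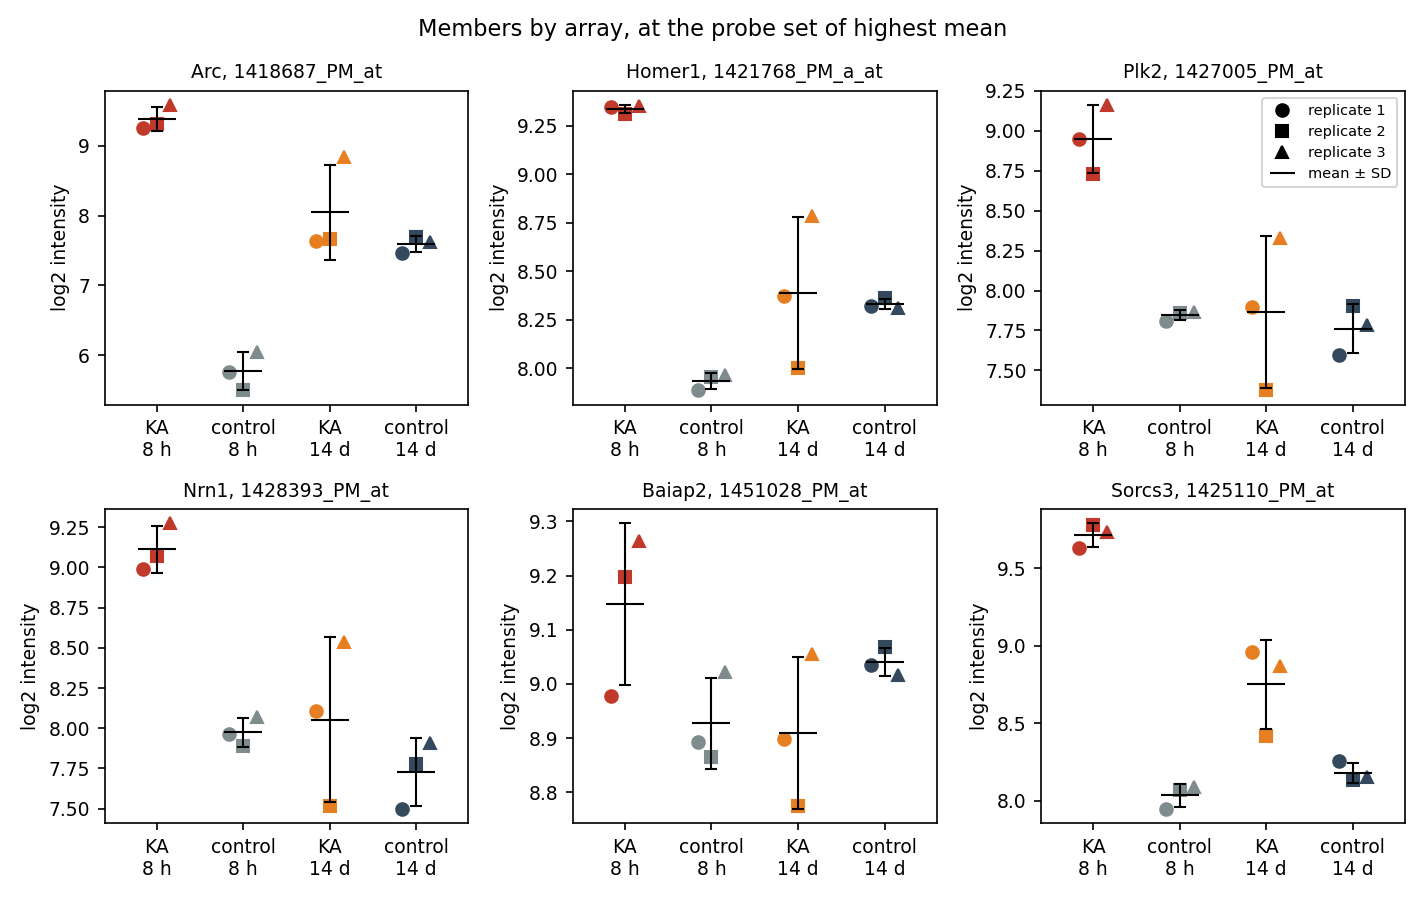
Log2 intensity of each gene at its probe set of highest mean, by group (KA 8 h, control 8 h, KA 14 d, control 14 d). Symbols are the 3 replicates and bars the mean ± SD. Arc lies between 9.26 and 9.59 in KA 8 h and between 5.50 and 6.04 in control 8 h, and KA 14 d replicate 3 is the highest KA 14 d array for Arc, Homer1, Plk2 and Nrn1.

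The 5 Homer1 probe sets did not change alike at 8 h. Probe set 1421768_PM_a_at, the brightest, had 9.35, 9.31 and 9.35 in KA 8 h, against 7.89, 7.95 and 7.96 in control 8 h. It rose 2.64-fold (log2 change 1.40 ± 0.14, adjusted p = 6.55e-06), with tight groups that did not overlap. Probe set 1425671_PM_at had 6.13, 5.63 and 5.97 in KA 8 h, against 3.76, 3.68 and 3.70 in control 8 h. All 3 control 8 h arrays lay at or below the array background, taken as the mean of 8 GC-rich background probe sets (4.16 to 4.47 in control 8 h). Counted from that background, the rise was at least 2.97-fold (fitted log2 change 2.20 ± 0.19, adjusted p = 2.27e-06). Of the 12 arrays, 8 lay at or below background at this probe set, and it passed the filter only through KA arrays.

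The other 3 Homer1 probe sets were not called, although 1439662_PM_at was under some alternatives. Probe set 1425710_PM_a_at had 5.59, 5.44 and 5.92 in KA 8 h, against 5.30, 5.39 and 5.20 in control 8 h, with a log2 change of 0.35 ± 0.14 (adjusted p = 0.117). Probe set 1437363_PM_at had 7.45, 7.29 and 7.90 in KA 8 h, against 7.28, 7.29 and 7.28 in control 8 h, with a change of 0.26 ± 0.16 (adjusted p = 0.337, 95% confidence interval -0.08 to 0.61). Probe set 1439662_PM_at had 6.16, 6.05 and 6.16 in KA 8 h, against 5.94, 5.86 and 5.87 in control 8 h, with a change of 0.23 ± 0.08 (adjusted p = 0.0691). It was called with cyclic loess (adjusted p = 0.0419), with array weights (adjusted p = 0.0292) and without KA 14 d replicate 3 (adjusted p = 0.0472). The groups overlapped at 1437363_PM_at and at neither of the other two.

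The unequal change was tested on the per-array log2 difference between each further probe set and 1421768_PM_a_at, in 1 fit over 8539 such pairs in 5396 genes. At 8 h, 2.76% of all pairs were called. The 3 Homer1 pairs of probe sets above background were among them. Relative to 1421768_PM_a_at, the log2 change at 8 h was smaller at all 3, by -1.17 ± 0.13 at 1439662_PM_at (adjusted p = 0.000178), -1.14 ± 0.13 at 1437363_PM_at (adjusted p = 0.000178) and -1.05 ± 0.17 at 1425710_PM_a_at (adjusted p = 0.00271). These calls held with any 1 array left out, with the replicate block and with the 50th percentile filter. The rise at 1425671_PM_at is known only as a lower bound (at least 2.97-fold), so it was not set against the 2.64-fold rise of 1421768_PM_a_at. Homer1 is known to give short and long transcripts with different 3′ ends. The annotation used here does not say which of them each probe set reads, so none was assigned to Homer1a or to the long forms.

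**Figure D2:**
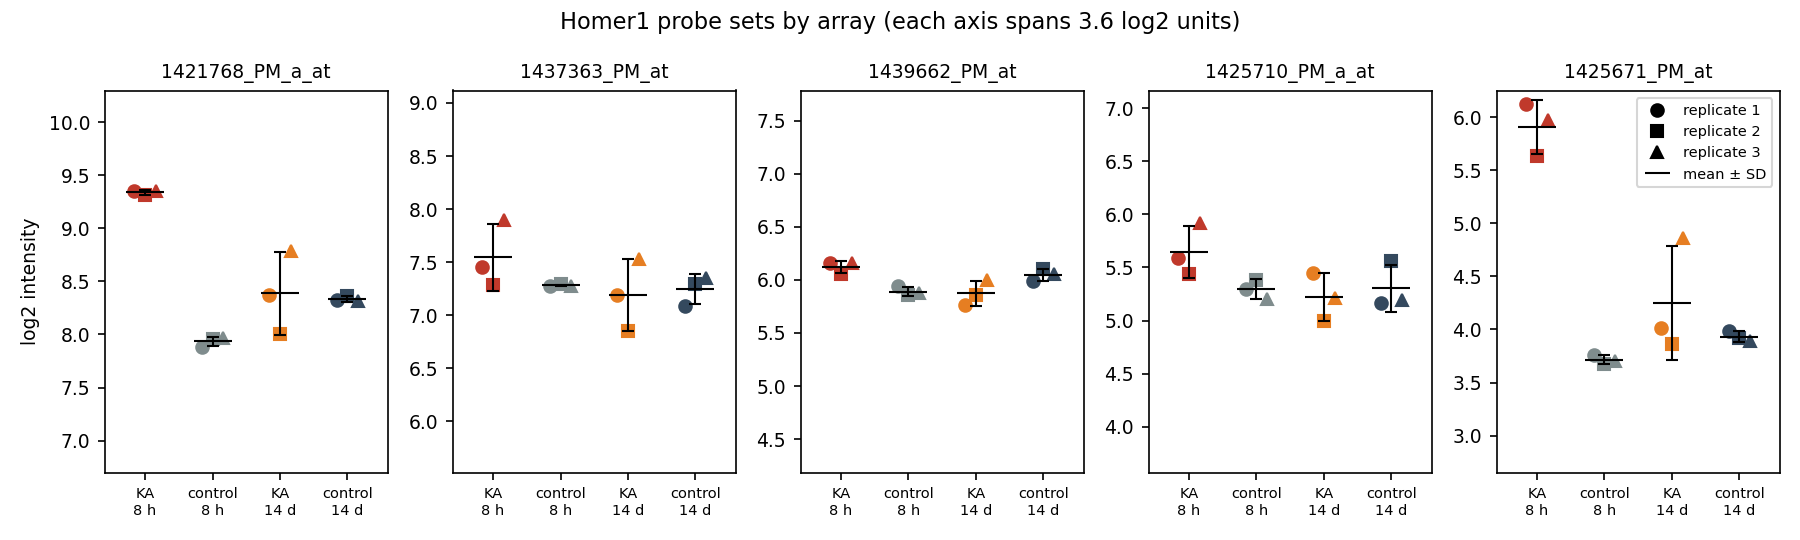
Log2 intensity of the 5 Homer1 probe sets by group, with axes of equal span. Symbols are the 3 replicates and bars the mean ± SD. Probe sets 1421768_PM_a_at and 1425671_PM_at are higher in KA 8 h (fitted changes of 1.40 and 2.20, the second from controls at background), while the other 3 changed by 0.23 to 0.35 and were not called.

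Plk2 (1427005_PM_at) had 8.95, 8.73 and 9.16 in KA 8 h, against 7.81, 7.86 and 7.86 in control 8 h. It rose 2.15-fold (log2 change 1.10 ± 0.18, adjusted p = 0.000627). Nrn1 (1428393_PM_at) had 8.99, 9.07 and 9.27 in KA 8 h, against 7.97, 7.89 and 8.07 in control 8 h, and rose 2.20-fold (1.14 ± 0.19, adjusted p = 0.000745). The groups did not overlap for either gene.

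Sorcs3 was called higher at both of its probe sets, of which 1 is near background. Probe set 1425110_PM_at had 9.63, 9.78 and 9.73 in KA 8 h, against 7.95, 8.07 and 8.09 in control 8 h, and rose 3.20-fold (log2 change 1.68 ± 0.12, adjusted p = 2.24e-07). The dim probe set 1425111_PM_at had 5.17, 4.44 and 5.07 in KA 8 h, against 3.82, 3.91 and 3.96 in control 8 h. This probe set too passed the filter only through KA arrays. All 3 controls and KA 8 h replicate 2 lay at or below background there, and the rise was at least 1.47-fold (fitted log2 change 0.997 ± 0.16, adjusted p = 0.000645). With such values its change could not be set against that of 1425110_PM_at.

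Baiap2 changed least. Only 1425656_PM_a_at was called among its 4 probe sets, with 8.17, 8.14 and 8.23 in KA 8 h, against 7.52, 7.68 and 7.76 in control 8 h. It rose 1.44-fold (log2 change 0.52 ± 0.09, adjusted p = 0.00145). These 8 h controls lay below all 3 controls of 14 d (8.12, 8.07 and 8.05), which came close to the KA 8 h values. Probe set 1451028_PM_at, the brightest, had 8.98, 9.20 and 9.26 in KA 8 h, against 8.89, 8.87 and 9.02 in control 8 h (0.22 ± 0.10, adjusted p = 0.148). It was called with quantile normalization (adjusted p = 0.0477) and with cyclic loess (adjusted p = 0.0161), and the mean of the 4 Baiap2 probe sets was called too (0.24, adjusted p = 0.0112). Probe sets 1435128_PM_at and 1451027_PM_at changed by 0.16 ± 0.07 (adjusted p = 0.170) and 0.07 ± 0.11 (adjusted p = 0.758). None of the 3 Baiap2 pairs was called as unequal. The nearest to a call was 1425656_PM_a_at against 1451028_PM_at, with a difference of 0.30 ± 0.11 (limma adjusted p = 0.194, unadjusted p = 0.0152).

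**Figure D3:**
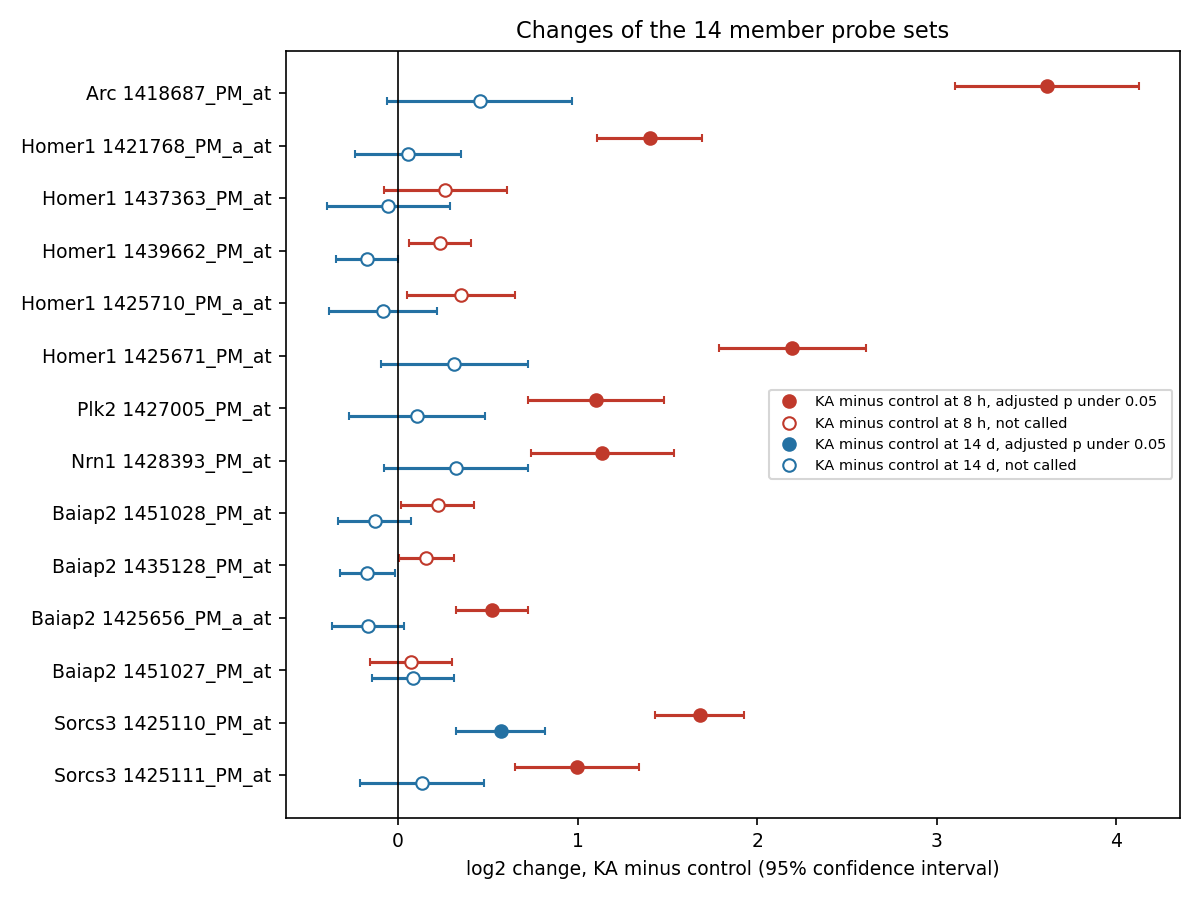
Log2 change, KA minus control, of the 14 probe sets at 8 h and at 14 d, with 95% confidence intervals. Filled points have an adjusted p under 0.05. The 8 filled points at 8 h run from 0.52 (Baiap2 1425656_PM_a_at) to 3.61 (Arc), where Homer1 1425671_PM_at and Sorcs3 1425111_PM_at are fitted from controls at background. The only filled point at 14 d is Sorcs3 1425110_PM_at at 0.57.

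Promoter sequence was available for 4 of the 6 genes, with 5 start sites (RefSeq, build GRCm38.p6). The 250 bases before each start were searched on both strands for the full cAMP response element TGACGTCA, which binds CREB, for its core TGACG, which the full element contains on both strands, for the TATA box TATAAA, for the AP-1 site TGANTCA, for the Egr site GCGNGGGCG, and for the CArG box and the MEF2 site by name. Homer1, Plk2 and Sorcs3 are shown because all 3 rose by over 1 log2 unit at their brightest probe set and their upstream windows differ in these motifs. Capitals mark every match, and each window ends at the base before the start. Homer1 is at chr13:93303507-93303756, Plk2 at chr13:110394794-110395043 and Sorcs3 at chr19:48205775-48206024, all on the plus strand.
Homer1: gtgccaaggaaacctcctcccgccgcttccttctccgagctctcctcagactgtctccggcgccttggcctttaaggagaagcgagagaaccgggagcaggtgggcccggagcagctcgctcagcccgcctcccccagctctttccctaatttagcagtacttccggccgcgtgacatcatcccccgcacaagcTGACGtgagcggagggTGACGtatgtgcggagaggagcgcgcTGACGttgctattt
Plk2: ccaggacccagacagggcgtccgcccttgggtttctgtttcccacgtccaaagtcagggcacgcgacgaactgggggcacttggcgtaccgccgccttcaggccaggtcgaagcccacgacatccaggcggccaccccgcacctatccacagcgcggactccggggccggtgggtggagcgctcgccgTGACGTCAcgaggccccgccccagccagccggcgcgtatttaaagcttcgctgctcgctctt
Sorcs3: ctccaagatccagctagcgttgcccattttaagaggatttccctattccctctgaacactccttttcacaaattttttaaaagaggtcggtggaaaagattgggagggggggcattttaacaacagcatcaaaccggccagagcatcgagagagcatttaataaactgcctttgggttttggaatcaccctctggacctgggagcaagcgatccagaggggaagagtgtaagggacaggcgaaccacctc
The Homer1 window holds the core element at 3 places, whose first bases lie 56, 40 and 14 bases before the start. Plk2 holds the full element once, 62 to 55 bases before the start. The Sorcs3 window and that of a second Homer1 start hold none of these letters. The Baiap2 window holds a TATA box and 3 Egr sites. Of all 32851 promoter windows of that length, 1.55% hold the full element, 17.8% the core, 12.4% the TATA box and 4.70% the Egr site. A match is a description of the letters and does not show binding.

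At 14 d, 1 of the 14 probe sets was higher after KA and 0 were lower. Over all probe sets tested, 1.28% were called higher and 0.403% lower. The 1 call was Sorcs3 1425110_PM_at, with 8.96, 8.42 and 8.87 in KA 14 d, against 8.26, 8.13 and 8.15 in control 14 d. It was 1.49-fold higher (log2 change 0.57 ± 0.12, n = 3 per group, limma adjusted p = 0.0195), and the groups did not overlap. The call was lost without control 14 d replicate 2 or 3, without KA 14 d replicate 1 or 3, with the mean of both probe sets and with only the 14 d arrays in the fit. Its adjusted p reached 0.155 over the alternatives. The dim Sorcs3 probe set changed by 0.13 ± 0.16 (adjusted p = 0.843), with 2 KA and 3 control arrays at or below background.

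The KA 14 d arrays differed widely among themselves for the other genes. Arc had 7.63, 7.67 and 8.84 in KA 14 d, against 7.47, 7.69 and 7.62 in control 14 d (log2 change 0.45 ± 0.24, adjusted p = 0.525, 95% confidence interval -0.06 to 0.97). Replicate 3 stood 1.24 above the mean of the 14 d controls, and replicates 1 and 2 stood 0.04 and 0.08 above it. Without KA 14 d replicate 3 the Arc change was 0.06. Homer1 1421768_PM_a_at had 8.37, 8.00 and 8.79 in KA 14 d, against 8.32, 8.36 and 8.31 in control 14 d (0.06 ± 0.14, adjusted p = 0.934). Nrn1 had 8.11, 7.51 and 8.54 in KA 14 d, against 7.50, 7.78 and 7.91 in control 14 d (0.32 ± 0.19, adjusted p = 0.577). Without KA 14 d replicate 2 it was called (0.59, adjusted p = 0.0471). Plk2 had 7.90, 7.38 and 8.33 in KA 14 d, against 7.60, 7.90 and 7.79 in control 14 d (0.10 ± 0.18, adjusted p = 0.896). For all 3 of these genes, replicate 3 was above every 14 d control. Replicate 2 was below every 14 d control for Homer1 and Plk2 and at the lower end of their range for Nrn1.

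Homer1 1425671_PM_at had 4.02, 3.86 and 4.86 in KA 14 d, against 3.99, 3.92 and 3.89 in control 14 d. Only KA 14 d replicate 3 was above its own background. The remaining Homer1 probe sets changed by -0.17 to -0.05, and those of Baiap2 by -0.17 to 0.08, none of them called. Baiap2 1435128_PM_at had 8.22, 8.08 and 8.13 in KA 14 d, against 8.30, 8.33 and 8.31 in control 14 d, with no overlap (-0.17 ± 0.07, adjusted p = 0.360). No pair of probe sets of Homer1, Baiap2 or Sorcs3 changed unequally at 14 d by the limma fit, where 0.211% of all pairs were called. Of these 8 pairs, the 2 with a dim probe set compare values near background.

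KA 14 d replicate 3 was the highest of its group at 9 of the 14 probe sets and replicate 2 the lowest at 11. Over all probe sets tested, replicate 3 was highest at 43.8% and replicate 2 lowest at 44.3%. Replicate 3 was also the highest of its group at 10 of the 14 in KA 8 h (39.8% of all probe sets), at 9 in control 8 h (43.5%) and at 2 in control 14 d (43.3%).

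**Figure D4:**
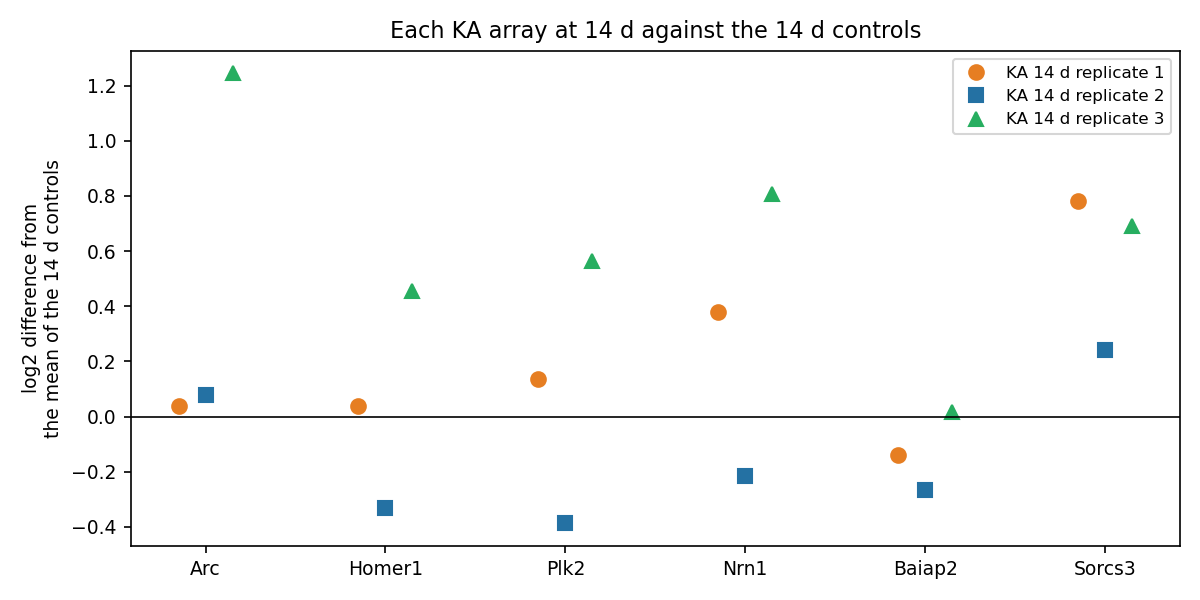
Log2 difference of each KA 14 d array from the mean of the 3 control 14 d arrays, for each gene at its brightest probe set. Replicate 3 is highest for Arc (1.24), Nrn1 (0.81), Plk2 (0.57) and Homer1 (0.46), replicate 2 lies below 0 for Homer1, Plk2, Nrn1 and Baiap2, and all 3 arrays lie above 0 for Sorcs3 and for Arc.

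The changes at the 2 times were compared as the change at 14 d minus the change at 8 h. At 7 of the 14 probe sets the change was smaller at 14 d and at 0 it was larger. Over all probe sets 2.89% were called in the first direction and 1.62% in the second. The difference of log2 changes was -3.16 ± 0.34 for Arc (adjusted p = 6.54e-05). It was -1.35 ± 0.19 for Homer1 1421768_PM_a_at (adjusted p = 0.000812). For Sorcs3 1425110_PM_at it was -1.11 ± 0.16 (adjusted p = 0.00102), and for Baiap2 1425656_PM_a_at -0.69 ± 0.13 (adjusted p = 0.00705). For Plk2 it was -0.997 ± 0.25 (adjusted p = 0.0348), a call lost with no filter on dim probe sets (adjusted p = 0.0549) and without any 1 of 8 of the 12 arrays (adjusted p up to 0.101). Homer1 1425671_PM_at and Sorcs3 1425111_PM_at were the other 2 called. They lay at or below background on 8 and 9 of the 12 arrays and exceeded the filter on KA arrays alone. Their calls therefore add no support to the count of 7, and no size is read from them here. Nrn1 did not pass (-0.82 ± 0.27, adjusted p = 0.109). It did with the replicate number as a block (adjusted p = 0.0218) and without KA 14 d replicate 3 (-1.06, adjusted p = 0.00656). Homer1 1439662_PM_at (-0.41 ± 0.11, adjusted p = 0.0597) also passed with the replicate block (adjusted p = 0.0429). What differs between the KA 8 h arrays and the rest, such as Xist, enters this comparison too. So does what differs between the controls, which were higher at 14 d for Arc (by 1.82) and Baiap2 1425656_PM_a_at (by 0.43). The mean of the KA arrays was 9.38 at 8 h and 8.05 at 14 d for Arc. For this Baiap2 probe set it was 8.18 and 7.92.

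The controls of the 2 times were compared to see how far the vehicle groups differ. Arc was 3.54-fold higher in control 14 d than in control 8 h (log2 change 1.82 ± 0.24, adjusted p = 0.00174), with values of 7.47, 7.69 and 7.62 in control 14 d, against 5.76, 5.50 and 6.04 in control 8 h. The call held under every alternative that gave this comparison a value, with adjusted p up to 0.0149. The highest 8 h control lay well below the lowest 14 d control. In order of level, Arc was highest in KA 8 h, then in KA 14 d and control 14 d, which overlapped, and lowest in control 8 h. Baiap2 1425656_PM_a_at was 1.34-fold higher in control 14 d (log2 change 0.43 ± 0.09, adjusted p = 0.0357), with 8.12, 8.07 and 8.05 in control 14 d, against 7.52, 7.68 and 7.76 in control 8 h. This call was lost without any 1 of the 6 control arrays or KA 8 h replicate 1, and with median centring, with adjusted p up to 0.205. Homer1 1421768_PM_a_at was higher in each control 14 d array than in any control 8 h array (0.40 ± 0.14) but was not called (adjusted p = 0.188). It was called without KA 14 d replicate 2 (adjusted p = 0.0452) or 3 (adjusted p = 0.0329), whose own values do not enter that difference but do enter its error. Arc and Baiap2 1425656_PM_a_at were the only members called, and 0 were lower. Over all probe sets 0.772% were called higher and 0.586% lower. The change at 8 h is measured from the 8 h controls. The changes of Arc (3.61) and Baiap2 1425656_PM_a_at (0.52) thus count from low levels. For Arc, the KA 8 h arrays (9.26 to 9.59) also lay above all 3 controls of 14 d. For this Baiap2 probe set, they (8.14 to 8.23) did so only narrowly.

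Other genes induced by activity that act at synapses were taken as a list of 12, chosen with earlier results of these data known. Its counts and medians are therefore a description and no independent support. At 8 h, 9 of the 12 rose and 0 fell, with a median log2 change of 1.51 against -0.02 over all genes. Ordered by adjusted p, the first were Inhba, a subunit of activin A, Bdnf, a neurotrophin, and Pcdh8 (arcadlin), a protocadherin. Inhba rose 29.7-fold (log2 change 4.89 ± 0.25) at the probe set used, but its other probe set had the opposite sign. Bdnf rose 7.37-fold (2.88 ± 0.22). Pcdh8 was at least 7.33-fold higher, with 2 of 3 controls at background. Nptx2, a pentraxin that clusters AMPA receptors, rose 16.9-fold, and Plat, the tissue plasminogen activator, rose 2.37-fold. Rgs2, a regulator of G protein signalling, rose 3.43-fold and Vgf, a secreted neuropeptide precursor, 2.19-fold. Ptgs2, the inducible cyclooxygenase, was at least 4.63-fold higher, with 3 of 3 controls at background. The ninth was Rheb, a GTPase upstream of mTOR. Sgk1, Plk3 and Syne1 were not called. Over all genes 7.48% rose at 8 h.

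At 14 d, 6 of these 12 rose and 0 fell, with a median change of 0.68 against -0.01 over all genes, of which 1.78% rose and 0.469% fell. They were Nptx2 (5.00-fold), Inhba (2.69-fold), Bdnf (2.25-fold), Rgs2 (2.07-fold), Vgf (1.58-fold) and Pcdh8, the last at least 1.70-fold higher. The other Inhba probe set had the opposite sign at 14 d too. The KA 14 d arrays differed widely here as well, with Nptx2 at 8.53, 6.74 and 8.64 and Inhba at 6.32, 5.43 and 6.98. Pcdh8 had 5.16, 4.42 and 5.87 in KA 14 d (limma adjusted p = 0.0471), and its replicate 2 lay below that array's background of 4.68. Among the 6 members at their brightest probe sets, 1 of 6 rose at 14 d and 5 of 6 at 8 h. The 2 lists were not tested against each other. Between the controls, Sgk1, a kinase induced by glucocorticoids, was 2.97-fold lower in control 14 d than in control 8 h (adjusted p = 0.00121), and no other of the 12 was called.

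The list of partners and relatives of the members held 29 genes, of which 23 were measured. At 8 h, 0 rose and 3 fell, with a median change of -0.12 against -0.02 over all genes. Grm5, the metabotropic glutamate receptor that Homer proteins bind, was 1.41-fold lower (log2 change -0.49 ± 0.12, adjusted p = 0.0109). Sh3gl3 (endophilin 3), an endocytic protein that binds Arc, was 1.36-fold lower (-0.44 ± 0.11, adjusted p = 0.0108). Homer2, a long relative of Homer1, was 1.33-fold lower (-0.41 ± 0.10, adjusted p = 0.0117). Over all genes 7.48% rose and 8.81% fell, so 3 of 23 is near the background. Plk3 stands in both lists.

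At 14 d, where 1.78% of all genes rose and 0.469% fell, only Homer2 of the 23 was called. It had 6.79, 6.75 and 6.92 in KA 14 d, against 7.28, 7.48 and 7.48 in control 14 d, and was 1.50-fold lower (log2 change -0.59 ± 0.10, adjusted p = 0.00548). At 8 h it had 6.60, 6.82 and 6.74 in KA 8 h, against 6.95, 7.19 and 7.27 in control 8 h. The groups did not overlap at either time. Both of its other probe sets had the same sign at both times. Homer3 changed by -0.13 ± 0.11 at 8 h and 0.06 ± 0.11 at 14 d, neither called. Sipa1l1, the SPAR protein that Plk2 targets, changed by -0.37 ± 0.14 at 8 h (adjusted p = 0.0995) and was not called. The relatives of Sorcs3, namely Sorcs1, Sorcs2, Sort1 and Sorl1, and its partner Pick1 were not called at either time.

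**Figure D5:**
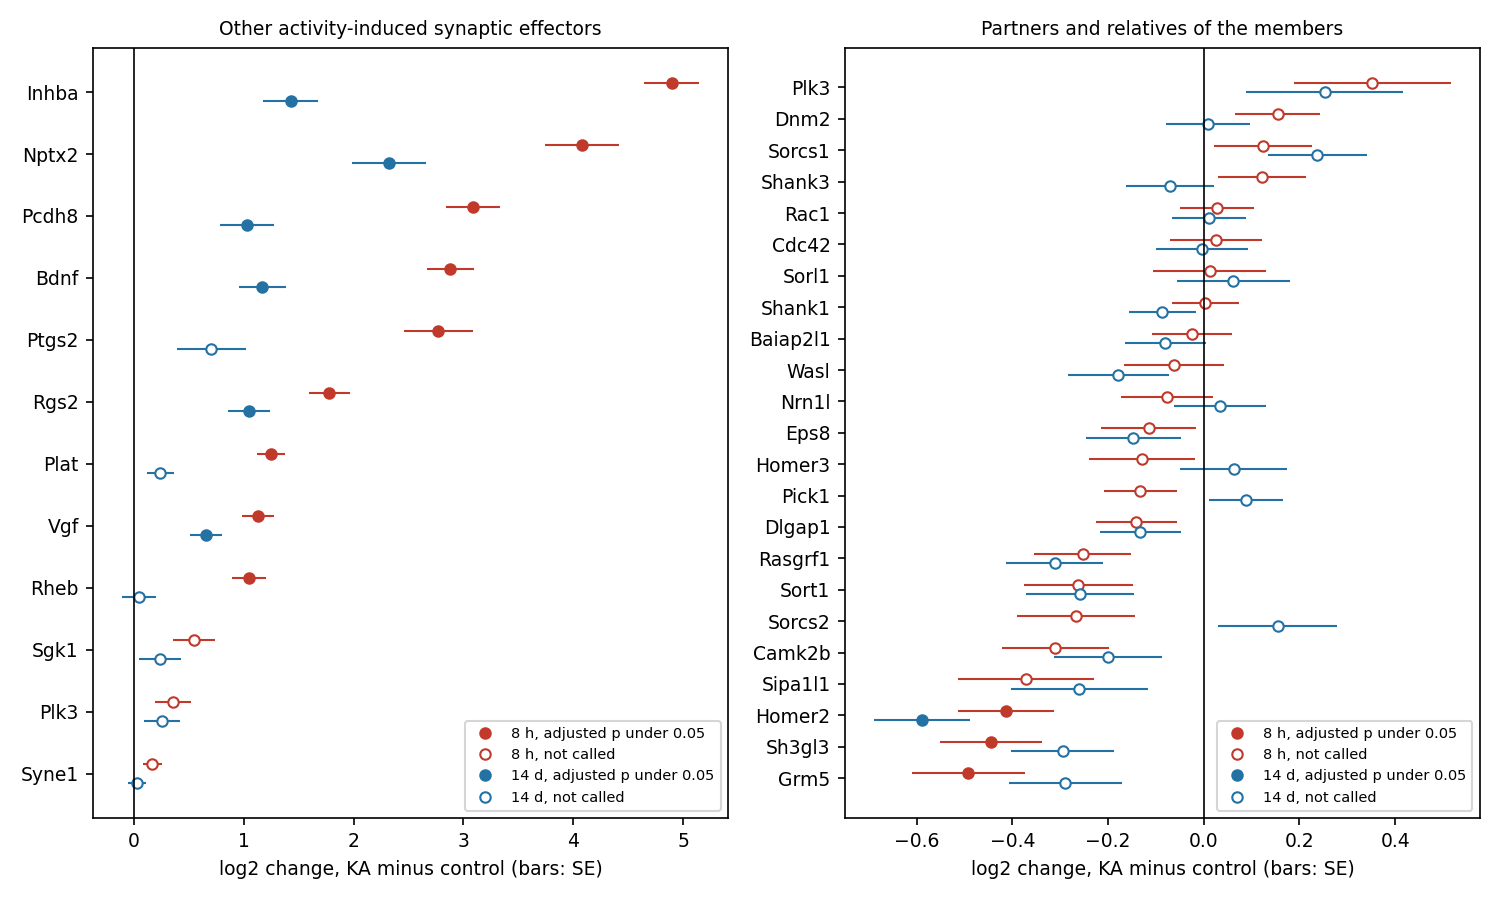
Log2 change, KA minus control, of the 12 other activity-induced genes (left) and the 23 measured partners and relatives (right), at 8 h and 14 d. Bars are the SE and filled points have an adjusted p under 0.05. On the left 9 genes are filled at 8 h and 6 at 14 d, all above 0, and on the right Grm5, Sh3gl3 and Homer2 are filled at 8 h and Homer2 at 14 d, all below 0. The axes differ in span.

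Across the 12 arrays the members moved together to different degrees. At the brightest probe sets, Plk2 and Nrn1 correlated at 0.977, Homer1 and Sorcs3 at 0.940, and Baiap2 and Sorcs3 at 0.566, the lowest of the 15 pairs. The points share the 4 groups and the arrays. For deviations from the group means over the 12 arrays, the correlations were 0.918 for Plk2 and Nrn1 and 0.271 for Arc and Sorcs3, the lowest. The deviations share what arrays of the same number have in common.

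The genes whose levels ran closest to Arc over the 12 arrays were Egr1 (Pearson correlation 0.978), an early transcription factor, Dnajb5 (0.959), a heat shock protein partner, Lbh (0.957), Slc16a1 (0.953), a lactate carrier, and Sfpq (0.951), an RNA-binding protein. Those closest to Homer1 1421768_PM_a_at were Fosl2 (0.983), an AP-1 subunit, Kmt5a (0.977), a histone methyltransferase, Lats2 (0.974), a Hippo pathway kinase, Dusp4 (0.973), a MAP kinase phosphatase, and Arpp19 (0.972). Each value is over 12 arrays in 4 groups and describes likeness of pattern only.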

How the data were processed

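RNA from whole hippocampus (5 ng) went through 22 amplification cycles, and Mouse MG-430 PM array strips took 8 µg of the cDNA, per the labels' protocols. The authors deposited log2 intensities per probe set. RMA and affy are named, without version, per the submitters' processing notes. The scale is not stated, and values of 2.63 to 13.2 with near-equal medians have the range of RMA output.

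Of 45141 probe sets, 104 were array controls. Symbols came from an older platform annotation, updated by gene identifier (28898 probe sets had 1 symbol, 551 several, 15588 none). A probe set had to exceed the 30th percentile of an array (4.08 to 4.15) on 3 or more arrays, which kept 32790. The fit (limma 3.58.1 under R 4.3.3) took all 12 arrays, gave every group its mean and left 8 residual degrees of freedom, two-sided, with Benjamini-Hochberg adjustment over all probe sets. The fit was tested on simulated data. Differences between probe sets of a gene were fitted alike. Values of the lower group that did not exceed the mean of 8 GC-rich background probe sets were raised to it, and the fold was then written "at least". Lists used the brightest probe set of each gene.

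Named were all member probe sets, called list members up to 8 by adjusted p, and the 5 genes most like Arc and Homer1 in pattern. Others were named after their values were seen. The members and lists were chosen with earlier results of these data known. As a pairing check, deviations of same-numbered KA and control arrays correlated at 0.157, 0.144 and 0.416 at 8 h, all over 0.1, the bound used for pairing, which comes from the data alone. Different numbers reached as much there (KA 1 with control 2 at 0.151, KA 2 with control 1 at 0.158), so only replicate 3 stands out. At 14 d they were 0.170, 0.059 and 0.487, and not all reached it.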

Additional observations from a re-analysis of the deposited data

Results flagged for a closer look

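At 7 probe sets the change after KA differed between 8 h and 14 d by the interaction term of the limma fit, which is what set them apart. The change at 14 d minus the change at 8 h was -3.16 for Arc 1418687_PM_at, -1.35 for Homer1 1421768_PM_a_at and -1.88 for Homer1 1425671_PM_at (log2). It was -0.997 for Plk2 1427005_PM_at, -0.691 for Baiap2 1425656_PM_a_at, -1.11 for Sorcs3 1425110_PM_at and -0.862 for Sorcs3 1425111_PM_at. Homer1 1425671_PM_at and Sorcs3 1425111_PM_at lay at or below background on 8 and 9 of the 12 arrays and exceeded the filter on KA arrays alone. Their calls are therefore no support, and their fitted values are no sizes of an effect. Arc was also 1.82 higher (log2) in control 14 d than in control 8 h, and Baiap2 1425656_PM_a_at 0.43 higher. These gaps between controls are part of the differences given for them.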

How the results depend on the processing

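The 8 calls at 8 h and the Arc call between the controls kept their direction and passed wherever an alternative gave them a value. Sorcs3 1425111_PM_at had none with the 50th percentile filter, where 7 members were called. It, Homer1 1425671_PM_at and Baiap2 1425656_PM_a_at had none of their own in the runs with 1 value per gene. As Homer1 1425671_PM_at and Sorcs3 1425111_PM_at exceeded the filter on KA arrays alone, their steady calls at 8 h are no support. Calls gained by Homer1 1439662_PM_at and Baiap2 1451028_PM_at at 8 h stand beside those results. For the difference of changes, Nrn1 and Homer1 1439662_PM_at were also called with cyclic loess (adjusted p = 0.0457 and 0.0446). The Sorcs3 call at 14 d and the Baiap2 call between the controls were lost under some alternatives. So were the Plk2 and Sorcs3 1425111_PM_at calls on the difference of changes. Array weights did not converge, and with 3 arrays a group and signal near background at 2 probe sets, small changes could not be resolved. The cause of the changes below was not tested.

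Over all probe sets, the fit called 4843 at 8 h and 551 at 14 d. It called 1478 as differing in change between the times and 445 as differing between the controls. With any 1 array left out, they ranged over 291 to 657 at 14 d, 924 to 1885 for the difference and 115 to 734 between controls. Members called higher ranged over 0 to 2 at 14 d and 1 to 3 between controls, and pairs over 119 to 290 at 8 h and 11 to 26 at 14 d. Calls between controls numbered 684 with quantile normalization and 668 with cyclic loess, and the control difference of Homer1 1425710_PM_a_at (0.01) was then -0.0019 and -0.0050. Members called higher between controls numbered 1 with median centring, at an adjusted p under 0.01 and without the replicate 3 arrays. With only the 6 arrays of 14 d, 307 probe sets and 0 members were called.

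With array weights the counts were 7304 at 14 d, 5344 for the difference and 2650 between controls. Members were then 2 higher and 1 lower at 14 d and 11 lower for the difference. Homer1 1425710_PM_a_at at 14 d became 0.033, Baiap2 1425656_PM_a_at at 14 d 0.0020 and the Baiap2 1451027_PM_at difference -0.033. At an adjusted p under 0.01 the counts were 2585 at 8 h, 252 at 14 d (0 members), 616 for the difference and 125 between controls. With the replicate number as a block, the counts were 6523 at 8 h, 984 at 14 d and 2434 for the difference, with 359 pairs at 8 h. The replicate block kept 8 members at 8 h and 1 at 14 d and called 9 for the difference, and changed no other member call. At 14 d, 10 pairs were called with the 50th percentile filter.

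Leaving out replicate 3 of every group, chosen after seeing the data, gave 0 members and 10 pairs at 14 d. The 14 d change was then -0.16 for Homer1 1421768_PM_a_at, -0.014 for 1425671_PM_at and -0.11 for Plk2. The 14 d pair differences became 0.045 for Baiap2 1425656_PM_a_at, 0.018 for Homer1 1425710_PM_a_at and 0.047 for Baiap2 1435128_PM_at.

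Uncalled values that changed sign with 1 array left out had these ranges. At 14 d they were -0.15 to 0.25 for Homer1 1421768_PM_a_at, -0.23 to 0.12 for 1437363_PM_at, -0.20 to 0.045 for 1425710_PM_a_at, -0.13 to 0.35 for Plk2 and -0.017 to 0.16 for Baiap2 1451027_PM_at. At 8 h the last was -0.017 to 0.14, and its difference of changes -0.088 to 0.10. Between controls they were -0.12 to 0.081 for Homer1 1425710_PM_a_at, -0.088 to 0.043 for 1437363_PM_at and -0.0044 to 0.084 for Sorcs3 1425111_PM_at. For 14 d pairs they were -0.13 to 0.048 for Baiap2 1425656_PM_a_at, -0.084 to 0.036 for Baiap2 1435128_PM_at and -0.26 to 0.064 for Homer1 1425710_PM_a_at.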
